A study of Mus musculus with 9 samples.

Results

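The troponins and other genes of the cardiac contractile apparatus were examined in cultured adult cardiac fibroblasts in which the cardiac transcription factor Gata4 or Tbx20 had been knocked down. The set was a list of 10 gene symbols out of 38924 genes in the count table. It holds 6 troponin genes (Tnnt2, Tnnt1, Tnnt3, Tnnc1, Tnni1 and Tnni3), a myosin light chain (Myl4), a myosin heavy chain (Myh6), an actin (Actc1) and a calcium release channel (Ryr2). The genes were chosen by name, as troponins and related sarcomere genes, with their log2 fold changes and calls in Gata4 KD against control already known (Tnnt2, Tnnc1 and Myl4 among them), so that comparison is given for them as a description with no test.

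Primary cardiac fibroblasts came from adult male mice, 8-10 weeks old by the labels (the methods give a wider range over all experiments), of the RosaCas9-EGFP line on a C57BL/6 background, so that in all groups the cells themselves made Cas9, the nuclease, and EGFP, a fluorescent protein. After 3 days in culture, cells negative for CD45 and CD31 and positive for CD90 were sorted and plated again, and 6 days later they were given guide RNAs with Lipofectamine MessengerMAX. Control cultures received scrambled guides, Gata4 KD cultures 2 guides against Gata4, and Tbx20 KD cultures 2 guides against Tbx20. RNA of the whole culture was taken 72 hr after transfection, with cells that had not taken up a guide included. There were 3 libraries in each group, named a, b and c, and it is not given which animals the letters stand for, so the p-values measure only the spread between these libraries.

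In striated muscle the troponin complex sits along the thin filament and switches contraction on when calcium rises. Troponin T ties the complex to tropomyosin, troponin I inhibits the contact of actin with myosin, and troponin C binds calcium and lifts that inhibition. Each subunit has forms for different muscle types encoded by separate genes, though heart and slow skeletal muscle share the troponin C of a single gene, Tnnc1. Gata4 and Tbx20 are needed to form the heart in the embryo, and Gata4 is known to act on contractile genes in heart muscle cells. Fibroblasts do not build sarcomeres and rely on non-muscle and smooth muscle forms of actin and myosin.

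The guides are shown because they define the groups compared. Each is written 5′ to 3′ with the adjoining PAM, the motif Cas9 needs beside its target, in capitals. Each matched the transcripts of 1 gene, in coding sequence. Coordinates are those of GRCm38.
Gata4 guide sgRNA1 (exon 3, minus strand, chr14:63204711-63204730): cagagagtgtgtcaattgtgGGG
Gata4 guide sgRNA3 (exon 2, plus strand, chr14:63240581-63240600): gcaggactgggctgtcgaagGGG
Tbx20 guide sgRNA2 (exon 2, minus strand, chr9:24770708-24770727): caaattccatgaactgggcaCGG
Tbx20 guide sgRNA3 (exon 4, plus strand, chr9:24765732-24765751): gagctgctcgccagtaaaggGGG

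The 250 bases before the first listed RefSeq start site of Tnnt2 (GRCm38.p6, plus strand, chr1:135836084-135836333) are shown because Tnnt2 carries the clearest difference among the 10 genes and because Gata4 binds DNA with a GATA core. Capitals mark the letters GATAA read on the minus strand, which stand as TTATC here.
Tnnt2 promoter: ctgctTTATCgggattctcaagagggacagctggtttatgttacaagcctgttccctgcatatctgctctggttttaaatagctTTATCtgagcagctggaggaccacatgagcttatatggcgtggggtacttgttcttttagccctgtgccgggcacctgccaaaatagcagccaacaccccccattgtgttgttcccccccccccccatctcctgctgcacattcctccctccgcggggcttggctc
The 2 matches lay 245 and 166 bases before the start site. Windows of 300 bases around start sites were listed for 9 of the 10 genes (none for Tnnt3), with more than 1 for Tnnt2 and Tnni1. A gene is counted once if any of its windows matched, while the shares over all promoters count each window. Searched on both strands, GATAA was found in 2 of the 9, Tnnt2 and Tnni3, and in 25.4% of all 32851 listed promoters. The second listed window of Tnnt2 (chr1:135836739-135837038) held 0 matches. AGGTGT, a core of T-box sites, was found in 3 of the 9 (Tnni1, Tnnt1 and Tnni3) and in 13.7% of all. The muscle motif CATTCC was found in 3 (Tnnt2, Tnnc1 and Myh6) and in 14.7% of all, and a CArG box in Actc1 alone and in 1.63% of all. These matches describe letters in the window. Binding was not measured.

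Total counts ranged from 31214828 to 41950397 per library. Values are given as CPM, counts scaled to a library of 1000000 with TMM factors over the 9 libraries. Gata4 stood at 165, 155 and 167 CPM in control replicates a, b and c, at 54.0, 46.7 and 65.5 CPM in Gata4 KD, and at 178, 192 and 198 CPM in Tbx20 KD. Tbx20 stood at 1009.7, 1275 and 719.8 CPM in control, at 673, 513 and 908 CPM in Gata4 KD, and at 319.8, 426 and 428 CPM in Tbx20 KD. Each target was lowest in its own knockdown with no overlap, by 65.9% for Gata4 and 60.9% for Tbx20, so the groups were partial knockdowns at the RNA level. By edgeR's quasi-likelihood test the adjusted p was 0.00272 for Gata4 in Gata4 KD and 0.748 for Tbx20 in Tbx20 KD, where DESeq2 gave 3.18e-08. The cultures carried fibroblast markers (9 genes summing to at least 8707 CPM in every library). The 22 cardiomyocyte markers summed to 1.23-2.14 CPM in control, 1.24-1.57 CPM in Gata4 KD and 1.69-1.82 CPM in Tbx20 KD, with 19 of the 22 under 10 counts in every library and 3, Myl3, Nppa and Pln, at 0 in all 9.

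Measured per length, Tnnt2 was by far the most abundant of the 10 genes. In control its level was 20.3 ± 3.06 CPM per kb of exon (SD, n = 3), above 76.8% of the 14591 genes that passed the filter on low counts and had an exon length. Next were Tnnc1 at 4.64 ± 0.705 and Myl4 at 2.44 ± 0.38 CPM per kb (SD, n = 3 each). Below them came Tnnt1 at 0.475 ± 0.142, Tnni1 at 0.275 ± 0.051, Tnnt3 at 0.206 ± 0.138 and Tnni3 at 0.164 ± 0.0576 CPM per kb. Tnnt3 overlapped both Tnni1 and Tnni3, and each Tnni1 value lay above each Tnni3 value. Ryr2, a gene with a very long transcript, stood at 0.0476 ± 0.012 CPM per kb, Actc1 at 0.0191 ± 0.0185 and Myh6 at 0.00148 ± 0.00257 CPM per kb.

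In the fit of all 9 libraries, 6 of the 10 genes passed the filter (Tnnt2, Tnnc1, Tnni1, Tnnt1, Myl4 and Ryr2), as did 14782 of the 38924 genes in the table. The other 4 were too low to judge: Tnnt3 with 63 counts over all 9 libraries, Tnni3 with 45, Actc1 with 9 and Myh6 with 2. Tnni1, with 52 counts in all, passed through its control libraries, the only ones with 10 counts or more. A gene that passes through its higher group alone had to differ between groups, so no summary over the genes that passed is used as support.

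**Figure D1:**
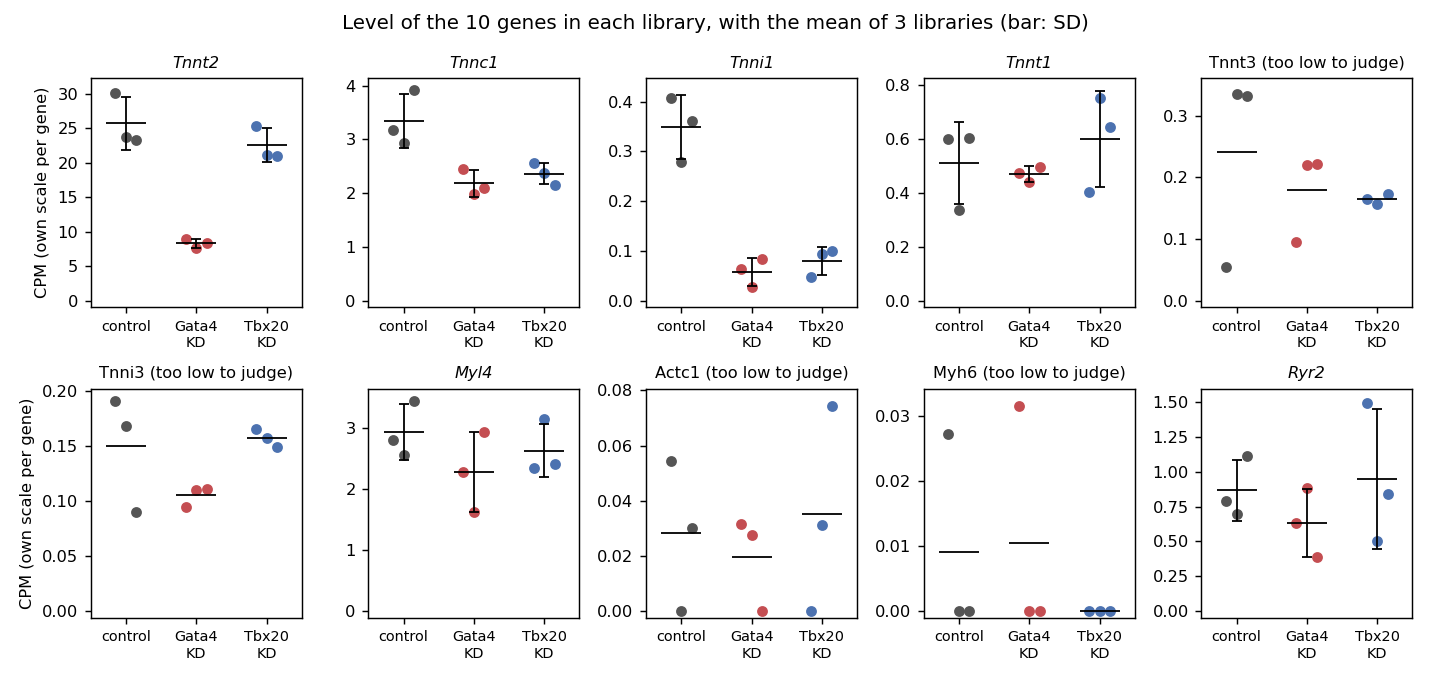
CPM of each of the 10 genes in every library, 1 panel per gene with its own scale, by group (points: libraries a, b and c from left to right; long dash: mean of 3 libraries; bar: SD, left out for the 4 genes too low to judge). Tnnt2 lies between 7.65 and 8.88 CPM in Gata4 KD and between 21.0 and 30.1 CPM in the other groups, and Tnni1 is at 0.0992 CPM or below in both knockdowns.

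Troponin T showed the clearest pattern, in its cardiac form. Tnnt2 (ENSMUSG00000026414, chr1:135836354-135852260, plus strand) encodes cardiac troponin T. Its level was 30.1, 23.6 and 23.3 CPM in control replicates a, b and c, 8.88, 7.65 and 8.30 CPM in Gata4 KD, and 25.3, 21.2 and 21.0 CPM in Tbx20 KD. The 3 Gata4 KD libraries lay far below the 6 others, while control and Tbx20 KD overlapped. The counts behind these values were 278 to 300 in Gata4 KD and 675 to 1108 in the others. No 75 base window of its transcripts occurred in another gene.

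As a description, the fitted log2 fold change of Tnnt2 was -1.64 (SE 0.13) in Gata4 KD against control, a mean 67.8% lower, beside -1.55 (SE 0.12) for Gata4 itself. In Tbx20 KD against control it was -0.18 (SE 0.12, adjusted p = 0.9997, edgeR quasi-likelihood test), which did not pass the threshold used here (an adjusted p of 0.05 over all genes tested). In the direct comparison of Gata4 KD with Tbx20 KD, which uses no control library, it was -1.44 (SE 0.10), again as a description, since these are the Gata4 KD libraries whose low Tnnt2 was known when the list was drawn up. In bulk RNA, fewer cells of a type and less RNA per cell cannot be told apart.

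The skeletal forms of troponin T were low. Tnnt1 (chr7:4504570-4516382, minus strand), the slow skeletal form, stood at 0.598, 0.336 and 0.602 CPM in control replicates a, b and c, at 0.472, 0.44 and 0.498 CPM in Gata4 KD, and at 0.402, 0.752 and 0.644 CPM in Tbx20 KD, on 12 to 26 counts per library. All 3 groups overlapped. Its log2 fold change was -0.12 (SE 0.33) in Gata4 KD against control, 0.22 (SE 0.35) in Tbx20 KD against control and -0.33 (SE 0.29) in Gata4 KD against Tbx20 KD. Tnnt3 (chr7:142498836-142516009, plus strand), the fast skeletal form, had 2 to 12 counts per library and was too low to judge, with 0.0544 to 0.336 CPM in control, 0.0945 to 0.221 CPM in Gata4 KD and 0.157 to 0.174 CPM in Tbx20 KD.

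The make-up of the family, taken per length, followed from these levels. Tnnt2 made up 96.7% ± 0.973 of troponin T transcripts in control, 91.7% ± 1.23 in Gata4 KD and 96.2% ± 1.18 in Tbx20 KD (SD, n = 3 each), and its share in every Gata4 KD library, at most 93.1%, lay under that in every other library, at least 95.3%. The share of Tnnt1 was 2.26% ± 0.643 in control and 6.11% ± 0.297 in Gata4 KD, while its own level was 0.475 and 0.436 CPM per kb. The summed level of the 3 troponin T genes was 21.0 ± 2.98 CPM per kb in control, 7.14 ± 0.453 in Gata4 KD and 18.5 ± 1.79 in Tbx20 KD. Tnnt2 thus remained the main form in all 9 libraries.

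**Figure D2:**
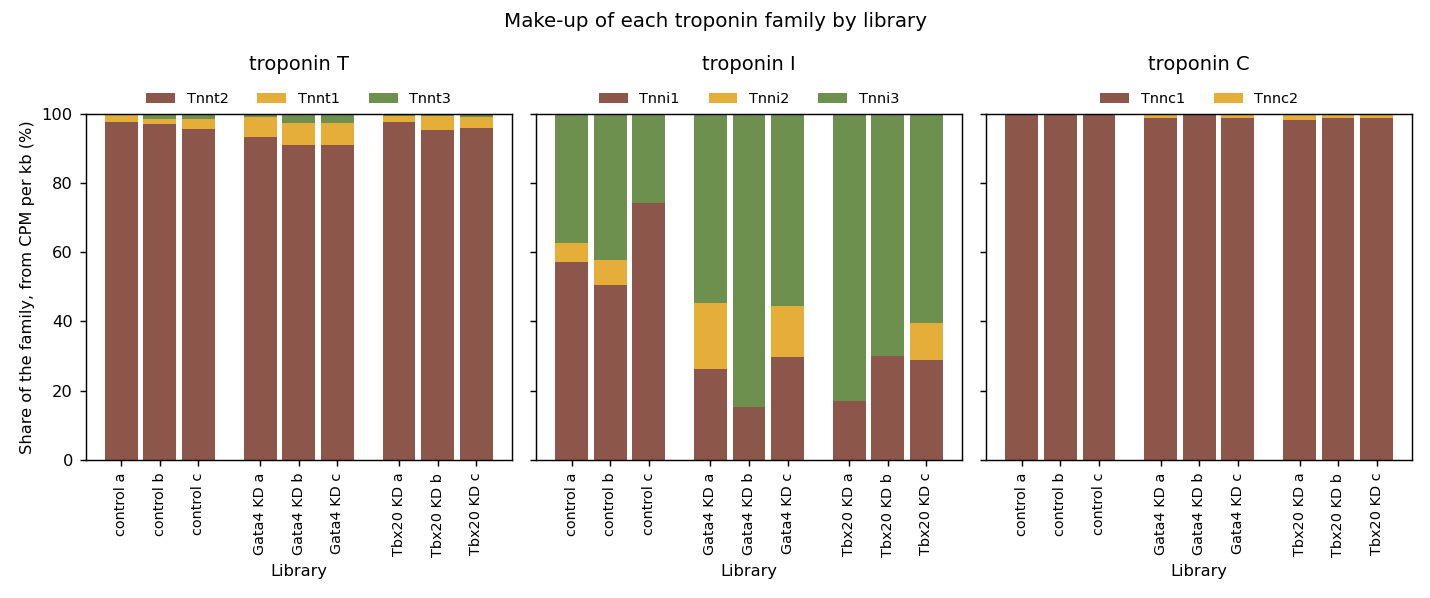
Make-up of the troponin T, I and C families in each library, as the percent of the family's summed CPM per kb of exon (stacked bars, 1 per library). Tnnt2 and Tnnc1 hold over 90% of their families in every library, and the share of Tnni1 in troponin I is 50.4% or more in control and 30.1% or less in both knockdowns, on counts of 15 or fewer per gene and library.

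Troponin C, the calcium-binding subunit, was almost wholly of the cardiac and slow skeletal form. Tnnc1 (chr14:31208312-31211729, plus strand) stood at 3.18, 2.94 and 3.92 CPM in control replicates a, b and c, at 2.46, 1.98 and 2.10 CPM in Gata4 KD, and at 2.55, 2.38 and 2.16 CPM in Tbx20 KD. Every library of either knockdown lay below every control library, and the knockdowns overlapped with each other. The counts were 72 to 130 per library.

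The log2 fold change of Tnnc1 was -0.62 (SE 0.19) in Gata4 KD against control, as a description, and -0.49 (SE 0.17, unadjusted p = 0.0193, adjusted p = 0.9997, edgeR quasi-likelihood test) in Tbx20 KD against control, which did not pass. These 2 values share the control libraries. Between the knockdowns the log2 fold change was -0.12 (SE 0.15). The fast skeletal form, Tnnc2, had at most 2 counts in any library and was at 0 in all 3 control libraries, where a count of 0 allows up to 0.0816 to 0.0904 CPM (3 counts per library, counting error only). Tnnc1 overlaps Nisch, which lies on the opposite strand. The reads were counted by strand.

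No form of troponin I was abundant, and the slow skeletal form had fewer counts in both knockdowns than in control. Tnni1 (chr1:135779434-135810989, plus strand), which is also made in the embryonic heart, lies 25364 bases from Tnnt2 on the same strand, with Lad1 between them. Its counts were 15, 10 and 12 in control replicates a, b and c, 2, 1 and 3 in Gata4 KD, and 2, 3 and 4 in Tbx20 KD. The corresponding levels were 0.408, 0.28 and 0.361 CPM in control, 0.063, 0.0275 and 0.083 CPM in Gata4 KD, and 0.0473, 0.094 and 0.0992 CPM in Tbx20 KD. All 6 knockdown libraries lay below the 3 control libraries, at a depth where 3 counts correspond to 0.0709 to 0.0945 CPM.

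Pooled over libraries, as a description, the ratio of Tnni1 in Gata4 KD to control was 0.164 (6 against 37 counts). In Tbx20 KD to control it was 0.224 (9 against 37 counts). No interval is given for these, since pooling leaves out the spread between libraries. Tnni1 also passed the filter through its control libraries. With the 6 libraries of each comparison fitted apart, Tnni1 passed the filter in Tbx20 KD against control alone, where the log2 fold change was -2.09 (SE 0.44, unadjusted p = 0.00136, adjusted p = 0.9997, edgeR quasi-likelihood test) and did not pass. With all 9 libraries in one fit it was also fitted in Gata4 KD against control, at -2.53 (SE 0.48), given as a description, and in Gata4 KD against Tbx20 KD, at -0.43 (SE 0.60). The pooled ratio of Gata4 KD to Tbx20 KD was 0.733 (exact 95% interval 0.215 to 2.30, counting error only). This interval also leaves out the spread between libraries, so it is too narrow for a comparison of groups. At this depth a difference between the knockdowns was not detectable.

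Tnni3 (chr7:4518305-4524229, minus strand), the troponin I of the adult heart, had 3 to 7 counts per library and was too low to judge. Its level was 0.19, 0.168 and 0.0904 CPM in control replicates a, b and c, 0.0945, 0.11 and 0.111 CPM in Gata4 KD and 0.166, 0.157 and 0.149 CPM in Tbx20 KD. Gata4 KD and control overlapped. Tnni3 overlaps Dnaaf3 on the same strand, and lies 1922 bases from Tnnt1. Tnni2, the fast skeletal form, had at most 1 count in any library. Tnni1 made up 60.6% ± 12.2 of troponin I per length in control, 23.7% ± 7.63 in Gata4 KD and 25.3% ± 7.24 in Tbx20 KD (SD, n = 3 each). The family as a whole summed to 0.46 ± 0.0911 CPM per kb in control, 0.183 ± 0.0383 in Gata4 KD and 0.245 ± 0.0254 in Tbx20 KD, against 21.0 for troponin T and 4.64 for troponin C in control.

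The other members were a myosin light chain, a calcium channel and 2 genes near 0. Myl4 (chr11:104550663-104595753, plus strand), the essential light chain of atrial and embryonic heart muscle, stood at 2.80, 2.55 and 3.43 CPM in control replicates a, b and c, at 2.27, 1.62 and 2.93 CPM in Gata4 KD, and at 2.34, 3.13 and 2.40 CPM in Tbx20 KD. The groups overlapped in every comparison. Its log2 fold change was -0.36 (SE 0.25) in Gata4 KD against control and -0.15 (SE 0.19, adjusted p = 0.9997, edgeR) in Tbx20 KD against control. Its gene lies 42 bases from Cdc27, which is on the opposite strand.

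Ryr2 (chr13:11553102-12106945, minus strand) encodes the channel that releases calcium from the sarcoplasmic reticulum of heart muscle. It stood at 0.789, 0.70 and 1.11 CPM in control replicates a, b and c, at 0.63, 0.881 and 0.387 CPM in Gata4 KD, and at 1.49, 0.501 and 0.843 CPM in Tbx20 KD. Replicate a of Tbx20 KD was the highest of the 9 libraries and replicate b of the same group among the lowest. The log2 fold change was -0.45 (SE 0.36) in Gata4 KD against control and 0.16 (SE 0.39, adjusted p = 0.9997, edgeR) in Tbx20 KD against control, and without Tbx20 KD replicate a the latter was -0.34. Between the knockdowns it was -0.60 (SE 0.45).

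Actc1 (chr2:114047282-114053548, minus strand), the actin of heart muscle, had 0 to 3 counts per library and was at 0 in 3 of the 9. Myh6 (chr14:54941921-54966927, minus strand), the alpha myosin heavy chain and the main one of the adult mouse heart, had 1 count in control replicate a, 1 in Gata4 KD replicate a and 0 in the other 7 libraries. Both were too low to judge. Among 6 actin genes compared per length, Actc1 held 0.000496% in control, while the smooth muscle form Acta2 held 14.4% and the cytoplasmic forms Actb and Actg1 held 48.4% and 37.1%. Of the transcript windows of Actg1 33.5% occur in other genes, so its share is uncertain, and of those of Myh6 13.7% do.

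Set against all genes, the counts of calls were as follows. In Gata4 KD against control, 5 of the 10 genes were tested and 1, Tnnt2, passed the threshold, beside 0.380% of all 14468 genes tested (0.200% higher and 0.180% lower). At an unadjusted p under 0.05 they were 2 (Tnnt2 and Tnnc1), beside 8.54% of all genes, and the same 2 did not overlap between the groups, beside 13.8%. All 5 log2 fold changes were below 0, with a median of -0.45, beside -0.017 over all genes. Nothing is read from these counts, since the list was drawn up with this comparison known.

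In Tbx20 KD against control, 6 of the 10 were tested and 0 passed by edgeR's quasi-likelihood test, where 0.00687% of all 14547 genes (1 gene) passed. By DESeq2 and by an exact test the number was also 0, beside 0.0687% and 0.0550% of all genes. At an unadjusted p under 0.05 there were 2, Tnni1 and Tnnc1, beside 2.69% of all genes, and these 2 did not overlap between the groups, beside 6.74%. The median log2 fold change of the 6 was -0.16, beside -0.0022 over all genes, with 4 below 0 and 2 above. Tnni1 had passed the filter through its control libraries, so its place among the 2 follows in part from the filter. The control libraries are also those of Gata4 KD against control, which was known when the list was drawn up. The counts here are thus not independent of that choice, and nothing is read from them.

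In Gata4 KD against Tbx20 KD, 5 were tested and 1, Tnnt2, was lower past the threshold, beside 1.44% of all 14477 genes (0.815% higher and 0.622% lower). With library size alone as the scaling, the 118 higher and 90 lower calls became 90 and 112, and the count of the 10 genes was again 1. Tnnt2 was also the single gene at an unadjusted p under 0.05, beside 16.7% of all genes, and the single one whose groups did not overlap, beside 23.0%. The median of the 5 was -0.33, beside -0.0063 over all genes. Nothing is read from these counts either, since the Gata4 KD libraries are those the list was chosen on.

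**Figure D3:**
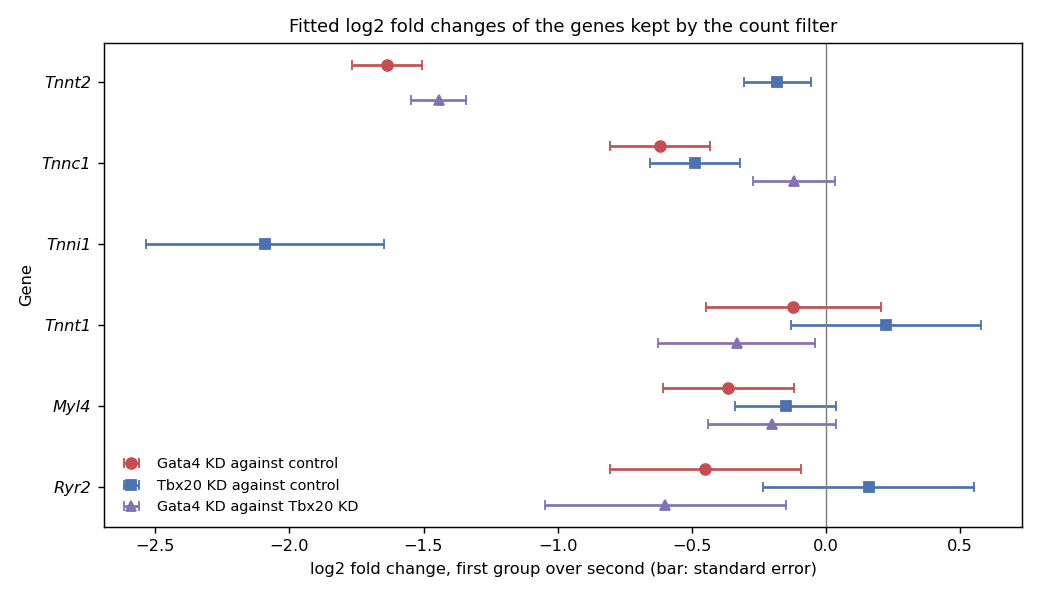
Fitted log2 fold changes (x axis, bar: standard error) of the genes that passed the filter, in Gata4 KD against control (circles), Tbx20 KD against control (squares) and Gata4 KD against Tbx20 KD (triangles). Tnnt2 lies at -1.64 and -1.44 in the comparisons that hold Gata4 KD and at -0.18 in the one that does not, and Tnnc1 lies at -0.62 and -0.49 against control.

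The genes whose levels were most like those of Tnnt2 were sought among 10047 genes with a mean of at least 5 CPM, by Pearson's r of log2 CPM over the 9 libraries. They were Ces2g (r = 0.99), Lrrn4 (0.98), Dusp3 (0.97), Chn2 (0.97) and Sri (0.97). The libraries share their groups and scaling, so r is a description. With the group means taken out, r fell to 0.67 for Ces2g, 0.78 for Lrrn4, 0.38 for Dusp3, 0.24 for Chn2 and 0.63 for Sri. For Gata4 itself r with Tnnt2 was 0.95, for Tbx20 -0.016, and for Tnnc1 and Tnni1 0.65 each. Sri encodes sorcin, a calcium-binding protein that acts on Ryr2, and stood at 114 CPM in control, 97.7 CPM in Gata4 KD and 112 CPM in Tbx20 KD.

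Lrrn4 is used as a marker of the epicardium and mesothelium and belongs to the list of 6 epicardial markers. It stood at 32.5, 15.7 and 26.3 CPM in control replicates a, b and c, at 2.74, 2.09 and 2.32 CPM in Gata4 KD, and at 31.9, 24.4 and 19.8 CPM in Tbx20 KD. The 6 markers summed to 25.5-49.2 CPM in control, 9.43-17.1 CPM in Gata4 KD and 27.1-44.0 CPM in Tbx20 KD, so the sum was low in the same 3 libraries as Tnnt2. Lrrn4 carried most of this, since the other 5 summed to 9.77-16.7 CPM in control, 7.11-15.1 CPM in Gata4 KD and 7.29-12.1 CPM in Tbx20 KD, and all 3 groups overlapped. None of the 6 was at 0 in a whole group, and 1 of the 5 tested, Lrrn4, passed as lower in Gata4 KD against control, beside 0.180% of all genes. Of the 5 tested, 3 did not overlap between Gata4 KD and control, beside 13.8% of all genes. These were Lrrn4, Upk3b and Upk1b, each lower in Gata4 KD. From control to Gata4 KD the group means went from 2.43 to 0.854 CPM for Upk3b, from 3.31 to 1.49 CPM for Upk1b and from 0.168 to 0.0485 CPM for Msln, but from 6.70 to 8.55 CPM for Krt19 and from 0.747 to 0.819 CPM for Wt1. The part of these cells in the level of Tnnt2 was not tested.

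The sums of other marker lists are given by group, and their part in the level of Tnnt2 was not tested. The 9 fibroblast markers summed to 12141-14472 CPM in control, 8707-13392 CPM in Gata4 KD and 11765-15024 CPM in Tbx20 KD, which overlap. Of the 9 log2 fold changes in Gata4 KD against control 7 were below 0, with a median of -0.29, beside -0.017 over all genes. The 4 leukocyte markers summed to 18.0-20.7 CPM in control, 11.01-17.3 CPM in Gata4 KD and 16.2-23.2 CPM in Tbx20 KD, and Gata4 KD lay below control. Of the 4, 1, Csf1r, did not overlap between Gata4 KD and control, beside 13.8% of all genes. Its mean was 10.0 CPM in control and 6.43 CPM in Gata4 KD. Ptprc, the CD45 gene, had means of 2.31 CPM in control and 2.37 CPM in Gata4 KD. Ptprc, Cd68 and Itgam each overlapped between these groups. By edgeR 0 of the 4 passed in Gata4 KD against control, with 3 below 0 and 1 above. The 4 endothelial markers summed to 32.3-52.0, 34.0-50.9 and 38.05-49.0 CPM in control, Gata4 KD and Tbx20 KD. Tek had the highest mean of the 4 in every group. By edgeR's quasi-likelihood test 1, Kdr, passed as higher in Gata4 KD against Tbx20 KD (log2 fold change 0.902, adjusted p = 0.0258), beside 0.815% of all genes. Its group means were 2.84, 5.57 and 2.98 CPM in the same order. In that comparison 2 of the 4 were above 0 and 2 below. In Gata4 KD against control 0 of the 4 passed, beside 0.380% of all genes, with 3 above 0 and 1 below. The 8 smooth muscle and myofibroblast markers summed to 1529-1875 CPM in control, 1770-2134 CPM in Gata4 KD and 1464-1715 CPM in Tbx20 KD. Gata4 KD lay above Tbx20 KD and overlapped control. By edgeR 0 of the 8 passed in any comparison. In the order Gata4 KD against control, Tbx20 KD against control and Gata4 KD against Tbx20 KD, 2, 0 and 2 had an unadjusted p under 0.05. The shares of all genes were 8.54%, 2.69% and 16.7%. DESeq2 and the exact test both called 1, 0 and 2, beside 1.89%, 0.0687% and 5.26% of all genes by DESeq2. Cnn1 was called in the first and last comparison and Tagln in the last, both higher in Gata4 KD. Cnn1 stood at 12.2 CPM in Gata4 KD and 7.68 CPM in control. The 8 skeletal muscle markers summed to at most 1.33 CPM in any library.

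The rest of the contractile apparatus was read from 4 further lists with 80 genes in all. They were drawn up by function, but with earlier results of these data known. Their values in the comparisons that hold Gata4 KD are thus a description. In Gata4 KD against control 42 of the 80 were tested, 0 passed as higher and 1 as lower, beside 0.380% of all genes, with 10 at an unadjusted p under 0.05 (8.54% of all genes) and a median of -0.041. In Tbx20 KD against control 41 were tested and 0 passed by edgeR, with 2 at an unadjusted p under 0.05 (2.69% of all) and a median of -0.059. In Gata4 KD against Tbx20 KD 41 were tested and 0 passed by edgeR, with 13 at an unadjusted p under 0.05 (16.7% of all) and a median of -0.021. In the order given, DESeq2 called 1, 0 and 6 of the 80, beside 1.89%, 0.0687% and 5.26% of all genes, and an exact test with tagwise dispersion called 2, 0 and 7, beside 1.73%, 0.0550% and 5.04%.

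Most genes of the thick filament were barely detected. Of 17, which encode myosin heavy and light chains, myosin-binding proteins and titin, 13 were under 10 counts in every library and 3 were tested, with medians of 0.019 in Gata4 KD against control, -0.34 in Tbx20 KD against control and 0.37 between the knockdowns. The highest per length were Mylpf, a fast skeletal light chain, at 0.604 ± 0.205 CPM per kb in control (SD, n = 3), and Myh8, a perinatal heavy chain, at 0.141 ± 0.0842. Thin filament genes beyond the list of 10 were high where they also serve non-muscle cells. Tpm3 stood at 185 ± 6.63, 169 ± 6.25 and 176 ± 4.96 CPM per kb in control, Gata4 KD and Tbx20 KD, and Tpm1 at 141 ± 3.13, 145 ± 7.10 and 122 ± 5.60 (SD, n = 3 each), both being tropomyosins, to which troponin T binds. Of the 12 thin filament genes 7, 6 and 6 were tested in the same order of comparisons, with medians of 0.047, -0.11 and 0.21. By edgeR 0 passed in each, beside 0.380%, 0.00687% and 1.44% of all genes. At an unadjusted p under 0.05 there were 0, 1 and 2, beside 8.54%, 2.69% and 16.7% of all genes. Both DESeq2 and the exact test called 0, 0 and 1, Tpm1. In the last comparison they called 5.26% and 5.04% of all genes. Tpm3 shares 19.2% of its windows with other genes.

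The single call of the 4 lists was in that of Z-disc and M-line genes, where 16 of 28 were tested. Ankrd1, a stress-responsive protein that binds titin and is also made outside muscle, stood at 1379, 1282 and 1441 CPM in control replicates a, b and c, at 895, 798 and 711 CPM in Gata4 KD, and at 1528, 1096 and 1185 CPM in Tbx20 KD. Gata4 KD lay below both other groups, which overlapped. The log2 fold change was -0.77 (SE 0.10, adjusted p = 0.0273, edgeR quasi-likelihood test) in Gata4 KD against control, -0.66 (SE 0.14, adjusted p = 0.0701, edgeR) in Gata4 KD against Tbx20 KD and -0.096 (SE 0.12, adjusted p = 0.9997, edgeR) in Tbx20 KD against control. The values that hold Gata4 KD are a description, since the list was drawn up with earlier results known. The first of these adjusted p-values, by edgeR, became 0.184 and 0.099 when control replicate a and c were left out, and 0.128 and 0.14 when replicate a and b of Gata4 KD were, none of which passed. Per length Ankrd1 led the list with 677 ± 39.7 CPM per kb in control, followed by the chaperone gene Cryab with 163 ± 27.7, and the medians of the list were -0.035, -0.018 and 0.031 in the order of comparisons above.

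Of the 23 calcium-handling genes 16 were tested in each comparison. Their medians were -0.061 in Gata4 KD against control, -0.029 in Tbx20 KD against control and -0.12 in Gata4 KD against Tbx20 KD. By edgeR 0 passed, beside 0.380%, 0.00687% and 1.44% of all genes in that order. At an unadjusted p under 0.05 there were 6, 1 and 5, beside 8.54%, 2.69% and 16.7% of all genes. Both DESeq2 and the exact test called 0, 0 and 3. In the last comparison they called 5.26% and 5.04% of all genes. The highest per length were Fkbp1a, a binding partner of calcium release channels in many cell types, at 204 ± 4.32 CPM per kb in control, and Atp2a2, the calcium pump of the endoplasmic and sarcoplasmic reticulum, at 90.2 ± 4.0 (SD, n = 3 each). Fkbp1a stood at 197 ± 10.3 CPM per kb in Gata4 KD and 201 ± 4.31 in Tbx20 KD, and Atp2a2 at 101 ± 4.58 and 85.6 ± 3.85. Ryr2, at 0.0476 CPM per kb in control, stood far below both.

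**Figure D4:**
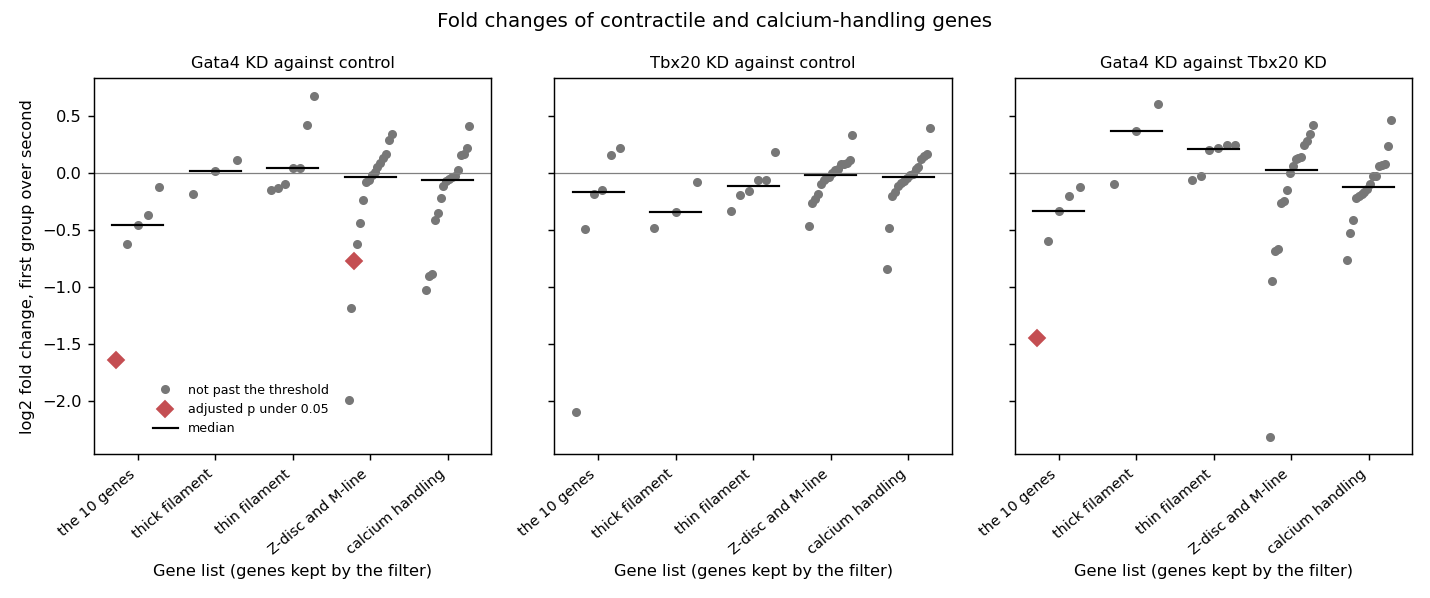
Fitted log2 fold changes (y axis) of the tested genes among the 10 and in the 4 lists of contractile and calcium-handling genes, 1 panel per comparison (points: genes; red diamonds: adjusted p under 0.05; line: median). Tnnt2 and Ankrd1 are the only genes past the threshold in Gata4 KD against control and Tnnt2 the only one in Gata4 KD against Tbx20 KD, and the medians of the 4 lists lie between -0.34 and 0.37.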

How the data were processed

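RNA was measured in 9 mRNA libraries as stranded single-end reads of 75 bases. Per the methods of the study, the authors filtered the reads on quality and ran RSEM with Bowtie2 against GRCm38, while the submitters' processing notes list Bowtie, RSEM and the build mm9. The deposited values are expected counts per gene from RSEM, held as whole numbers and not normalized, so reads shared by similar genes were divided by estimate.

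Groups were taken from the guide RNA in the labels. Symbols (37607 of 38924 IDs), exon lengths and positions were taken from GENCODE M21, and promoters from RefSeq (GRCm38.p6), neither of which need be the annotation of the authors. Guide sequences were taken from the supplement of the study and matched exactly to transcripts. CPM was scaled by TMM over all 9 libraries and divided by the length of merged exons for levels per kb. Each comparison was fitted on its 6 libraries in R 4.3.3 with edgeR 4.0.16, which the study used too, with filterByExpr, TMM, glmQLFit and glmQLFTest, no covariate, and Benjamini-Hochberg adjustment over all genes tested at 0.05. The SE is |log2 fold change| over the square root of F. Correlations used log2 CPM with a prior count of 2. A gene was called too low to judge where the filter of the 9-library fit dropped it. The exact interval of the pooled Tnni1 counts is Clopper-Pearson.

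The members and lists were chosen with earlier results of these data known. Named were all 10 genes, Gata4, Tbx20, Tnni2 and Tnnc2, up to 3 genes per list and comparison past the threshold, the 2 genes per list highest per length, and the 5 most like Tnnt2. Cell type markers and actins given singly were chosen after their values were seen. Replicates of a group differed by more than sampling noise in a chi-square comparison of counts, so none was merged in the fits. Only the Tnni1 ratios pooled counts over the libraries of a group. With 3 libraries a group an exact permutation test of 1 gene cannot go below p = 0.1, so genes were tested only with models across all genes, which were tested on simulated counts. Alternatives were DESeq2 1.42.0, library size alone, no filter, CPM above 1 in at least 2 libraries, an exact test, one fit of all 9 libraries, a replicate block and leaving out each library.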

Additional observations from a re-analysis of the deposited data

Results flagged for a closer look

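Tnnt2 stands here because the direct comparison of the knockdowns, fitted over all genes with edgeR, passed the threshold for it. The log2 fold change in Gata4 KD against Tbx20 KD was -1.44 (SE 0.10), with -1.49 to -1.35 over the alternatives, and Tnnt2 was lower in 3 of 3 Gata4 KD libraries than in every Tbx20 KD library. The list was chosen with the low Tnnt2 of these same Gata4 KD libraries known, so the value is a description and not independent evidence. Lrrn4 was low in the same 3 libraries and carried most of the difference in the sum of the epicardial markers. Without it the other 5 summed to 9.77-16.7 CPM in control, 7.11-15.1 CPM in Gata4 KD and 7.29-12.1 CPM in Tbx20 KD, which overlap. Among those 5, Upk3b and Upk1b were each lower in Gata4 KD than in control with no overlap. Msln had a lower mean in Gata4 KD, and Krt19 and Wt1 had higher ones. The part of Lrrn4-expressing cells in the difference was not tested.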

How the results depend on the processing

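The number of the 10 genes called was 1, 0 and 1 in Gata4 KD against control, Tbx20 KD against control and Gata4 KD against Tbx20 KD, and was the same without each library in turn (1 to 1, 0 to 0 and 1 to 1). Under the alternatives it moved once, to 2 in Gata4 KD against control with all 9 libraries in one fit, where Tnni1 joined Tnnt2. Tnni1 passes the filter there through its control libraries alone, and the list was drawn up with this comparison known, so nothing is read from that call. The labels do not say whether the replicate letters pair the libraries. Correlations of same-letter deviations ran from -0.17 to 0.25, inside the range of different-letter ones (-0.39 to 0.35). With 3 libraries a group this cannot settle whether there was pairing. The fit with the replicate block changed no call among the 10.

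Counts over all genes moved far more. In Gata4 KD against control 55 calls became 273 with DESeq2, 121 with no filter, 250 with the exact test, 148 with all 9 libraries, 5 with the replicate block and 6 to 189 without 1 library. In Tbx20 KD against control 1 call became 10, 2 and 8 with DESeq2, no filter and the exact test, 2 with the replicate block and 1 to 5 without 1 library. In Gata4 KD against Tbx20 KD 208 became 761, 324 and 729, then 101 with the replicate block and 22 to 801 without 1 library. The cause was not tested.

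Of 319 alternative fold changes of the members, Gata4, Tbx20 and Ankrd1, 300 kept direction and side of the threshold, 5 lost it (all Ankrd1 in Gata4 KD against control, 1 of them with the replicate block, -0.78, adjusted p 0.213, edgeR), 11 gained it (Tbx20 or Ankrd1) and 3 reversed. These were Tnnt1 in Gata4 KD against control without control replicate a (0.0091) or c (0.0061), over a range of -0.35 to 0.0091 without 1 library, and Ryr2 in Tbx20 KD against control without Tbx20 KD replicate a, over a range of -0.34 to 0.44 without 1 library, none past the threshold. All 30 group mean levels kept within 1 SD with library size alone. Depth limits Tnni1, Tnnt3, Tnni3, Actc1, Myh6, Tnni2 and Tnnc2, where a few counts set each value.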
